A study of Mus musculus with 18 samples.

Results

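M1-polarized bone marrow-derived macrophages that lack 14-3-3ε in the myeloid lineage were compared with M1-polarized macrophages that lack progranulin, across all genes of the table. The comparison was fixed by library label alone: 3 libraries labelled 14-3-3e knockout M1 against 3 labelled PGRN knockout M1, 6 of the 18 libraries of the series, with no WT library in the test. All macrophages came from C57BL/6 mice, were grown from bone marrow for 7 days in α-MEM with 10% serum and 10 ng/ml of the growth factor M-CSF, and received 100 ng/ml LPS with 20 ng/ml interferon gamma for 18 h (M1). The libraries labelled M2, used below to set the M1 difference beside that in M2, received 20 ng/ml IL-4 for the same time, and WT libraries of both polarizations were not used in the main test. The genotype labels read PGRN knockout and myeloid 14-3-3e knockout, so the second deletion is limited to a lineage; its driver, the age of the mice, and whether the 3 libraries of a group came from separate mice are not given in the sources used here, and p-values then measure only the spread between these libraries. Since neither group is WT, a value that is lower in 14-3-3ε knockout may equally be called higher in PGRN knockout, and the text gives every difference as 14-3-3ε knockout minus PGRN knockout.

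Progranulin, encoded by Grn, is a secreted and lysosomal glycoprotein that is cut into granulins inside lysosomes, travels there with prosaposin or by way of sortilin, and binds TNF receptors. Macrophages are among its main sources, and its loss is known for lysosomal storage disease of neurons and for a heightened inflammatory state. The 14-3-3 proteins are dimeric adaptors that bind phosphorylated serine and threonine motifs; Ywhae encodes the epsilon form. The title of the series places TNFR2 (gene Tnfrsf1b) and 14-3-3ε in a shared complex, and the comparison asks how cells without the ligand differ from cells with less of the adaptor.

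The targeted genes were read first. Grn had 69306, 69903 and 66328 normalized counts in the 3 14-3-3ε knockout libraries and 497, 212 and 231 in the 3 PGRN knockout libraries. The difference was 7.88 ± 0.33 on the log2 scale (± SE, n = 3 and 3, adjusted p = 4.7e-05), so the PGRN knockout libraries kept a small residue of Grn reads. Ywhae had 6214, 5191 and 5537 normalized counts in 14-3-3ε knockout and 8542, 8815 and 8516 in PGRN knockout. The groups did not overlap, and the difference was -0.61 ± 0.07 (adjusted p = 0.00054): Ywhae RNA was lower in the libraries labelled 14-3-3ε knockout and was not absent. The table counts whole genes, so reads from an undeleted part of Ywhae and reads from cells that kept the gene cannot be told apart.

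The 6 libraries held between 9.59 and 105 M recovered reads, a range of 10.98-fold, and 1 read was worth from 0.202 to 2.49 normalized counts. Libraries of the same group correlated at 0.976 to 0.990 over 10653 genes on the log2 scale. The M1 label was checked against marker genes: Nos2 (inducible nitric oxide synthase) lay between 442 and 625 normalized counts in the 6 M1 libraries, against at most 60.8 in the 6 M2 libraries of the knockouts, while Arg1 (arginase 1) lay at 75.1 or less against at least 9184. Macrophage genes Adgre1, Csf1r and Itgam were each at 16178 normalized counts or more in all 6 M1 libraries and did not pass the test between the groups. Over the whole list of 10 macrophage markers 6 were lower in 14-3-3ε knockout and 1 was higher. The summed level was 9393 to 12950 CPM in 14-3-3ε knockout against 19401 to 23237 CPM in PGRN knockout, without overlap. Most of that gap comes from the single marker Lyz2, which took 0.355% of reads in 14-3-3ε knockout and 1.38% in PGRN knockout. The sum is therefore no measure of macrophage content. The part of this sum in the gene differences below was not tested. Of 13 stroma markers, 9 were higher in 14-3-3ε knockout and 0 lower, and their summed level was 31721 to 38857 CPM in 14-3-3ε knockout against 13498 to 15630 CPM in PGRN knockout. B cell markers summed to 163 to 246 against 35.5 to 92.9 CPM, with 2 of 7 higher, a count that was 4 without PGRN knockout replicate 2 and 1 without any other single library. Of 5 mast cell and basophil markers 3 were higher, with sums of 17.1 to 25.9 against 7.81 to 19.1 CPM, and the count was 4 without PGRN knockout replicate 2 and 1 without any other single library. T and NK cell markers summed to 6.34 CPM or less, with 0 of 2 tested members past the threshold. Neutrophil markers summed to 234 to 356 CPM in 14-3-3ε knockout and 255 to 312 CPM in PGRN knockout. Of 8 tested, the granule gene Mpo was higher (395, 161 and 208 against 12.3, 39.8 and 27.0 normalized counts, 3.26 ± 0.49), Csf3r was lower (-0.48 ± 0.06) and 6 did not pass. The shares of 12.5% higher and 12.5% lower were below those of all tested genes, 20.2% and 23.6%. The neutrophil surface gene Ly6g was at 0 in all PGRN knockout M1 libraries and at 1.61 or less in the others. The library of 14-3-3ε knockout replicate 2 stood apart in Xist, the RNA of the inactive X chromosome, at 1306 normalized counts in M1 against 0.807 and 26.5 in the other libraries of its group and 4.09 or less in PGRN knockout. It also held RNA of the Y chromosome gene Ddx3y, at 389 against 782 and 848 in its group, so it carried RNA of both sexes. Replicate 2 of 14-3-3ε knockout in M2 had the same pattern, with Xist at 3123 and Ddx3y at 423. Without the M1 library of replicate 2, 5340 genes passed the test described next, in place of 6292. In bulk RNA, fewer cells of a type and less RNA per cell cannot be told apart, here and in every result that follows.

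Of 14376 genes tested, 6292 passed an adjusted p of 0.05 (43.8%): 2904 were higher (20.2%) and 3388 lower (23.6%) in 14-3-3ε knockout. The shares of 20.2% and 23.6% are the background for list counts of this fit. List counts with library totals have another background, 4813 higher and 1974 lower of the same 14376 genes. Those of the M1 minus M2 difference have 6.25% toward higher and 4.52% toward lower values in M1. A change of over 2-fold was reached by 967 of the higher and 586 of the lower genes. The median difference over all tested genes was 0.00 (-0.0036) on the log2 scale. Scaling to library totals in place of the deposited size factors moved that median by 0.18 to 0.17 and turned the split to 4813 higher and 1974 lower, so small differences shared by many genes depend on the scaling. A few very abundant genes took a larger share of the PGRN knockout reads, among them Psap (1.58% of reads in PGRN knockout, 0.607% in 14-3-3ε knockout), Ctsb (1.5% and 0.735%), Lyz2 (1.38% and 0.355%) and Apoe (1.32% and 0.397%).

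**Figure D1:**
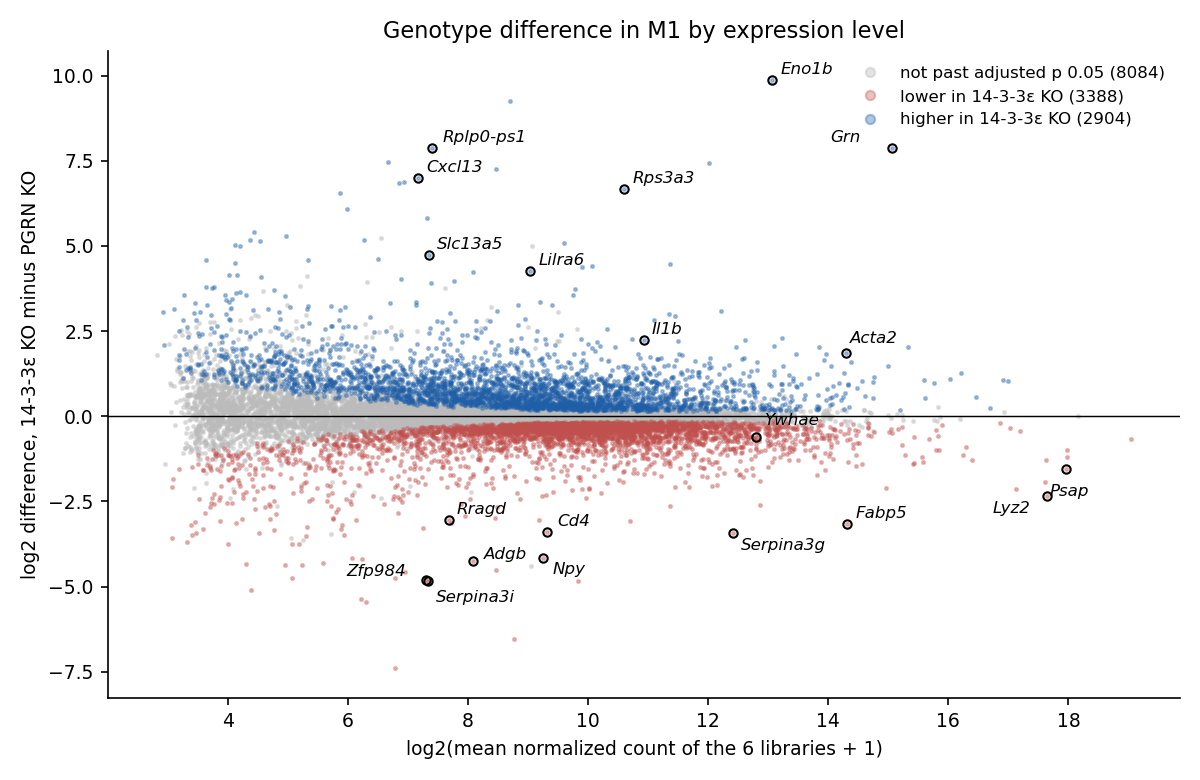
Log2 difference of 14-3-3ε knockout minus PGRN knockout (vertical axis) against the log2 mean normalized count of the 6 M1 libraries (horizontal axis) for the 14376 tested genes; colours mark genes past adjusted p 0.05 and circles mark named genes. Grn and Eno1b lie highest among the circled genes, and the most abundant circled genes, Psap and Lyz2, lie below 0.

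Among well-expressed genes with standard names, the largest differences toward lower values in 14-3-3ε knockout were those of 12 genes that include serine protease inhibitors, Npy, Cd4 and Fabp5. Serpina3i, a serine protease inhibitor of the α1-antichymotrypsin cluster, had 11.5, 11.1 and 7.41 normalized counts in 14-3-3ε knockout and 311, 354 and 269 in PGRN knockout (-4.84 ± 0.22, adjusted p = 1.9e-05). Its cluster neighbours moved the same way: the difference was -3.43 ± 0.35 for Serpina3g and -3.29 ± 0.26 for Serpina3h. These copies are near-identical in sequence, and how the counting split reads among them was not tested. Npy, the precursor of neuropeptide Y, had 100.9, 83.0 and 29.6 against 1097, 1108 and 1217 normalized counts. Cd4, the T helper cell co-receptor that some macrophages also carry, had 183, 91.0 and 75.1 against 1209, 1258 and 1015, a difference of -3.41 ± 0.33; the T cell genes Cd3d, Cd3e and Cd3g did not exceed 8.07 normalized counts in any of the 6 libraries.

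Fabp5, a carrier of fatty acids in the cytosol, had the smallest p of the table among all genes tested. It stood at 4312, 3984 and 4011 normalized counts in 14-3-3ε knockout and at 36869, 38253 and 35393 in PGRN knockout, a difference of -3.17 ± 0.06 or 8.98-fold (adjusted p = 1e-06). The inhibitory receptor Cd300lf stood at 309, 336 and 409 against 2913, 3431 and 2546. Hal, which begins the breakdown of histidine, stood at 199, 62.4 and 133 against 808, 1447 and 826, without overlap of the groups. Other genes of this group were the zinc finger gene Zfp984 (-4.81 ± 0.35) and the globin-like gene Adgb (-4.25 ± 0.42). The pseudogene Rps2-ps13 also met the rule at -6.54 ± 2.04, but its PGRN knockout libraries held 1033, 12.5 and 1561 normalized counts, so 1 of the 3 was near the level of the other group (7.87, 2.01 and 0), and its call was lost in most alternatives.

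In the other direction, Cxcl13, a chemokine that attracts B cells, had 277, 292 and 275 normalized counts in 14-3-3ε knockout and 10.2, 0 and 0 in PGRN knockout. The 3 PGRN knockout libraries held 5 reads of it in all, and the fitted difference of 6.98 ± 0.94 (adjusted p = 0.0016) depends on the pseudocount. Slc13a5, a citrate carrier of the plasma membrane, had 176, 309 and 457 against 8.18, 14.9 and 8.37 (4.72 ± 0.38). Lilra6, an activating immunoglobulin-like receptor of a family with near-identical members, had 704, 826 and 1475 against 43.0, 59.8 and 44.2 (4.27 ± 0.29). Gdpd3, a lysophospholipase D, differed by 3.98 ± 0.21, and Mfap5, a protein of elastic microfibrils, by 3.91 ± 0.27. Chil1, a chitinase-like secreted protein, had 2389, 2139 and 60.3 in 14-3-3ε knockout, so replicate 3 was far below the other libraries of its group; PGRN knockout had 20.5, 14.9 and 21.8, and the call (5.10 ± 1.52, adjusted p = 0.045) was lost when any one of 5 of the 6 libraries was left out.

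The same ranking held 6 copies of abundant genes. Eno1b had 9535, 18564 and 23200 normalized counts in 14-3-3ε knockout against 221, 0 and 21.8 in PGRN knockout, while its near-identical partner, the glycolytic gene Eno1, differed by -0.27 without passing (adjusted p = 0.18); without 14-3-3ε knockout replicate 1 or replicate 3 the Eno1b call was lost. The differences of the other copies were 7.86 ± 0.46 for Rplp0-ps1, 6.67 ± 0.23 for Rps3a3, 4.45 ± 0.18 for Tpm3-rs7, 4.38 ± 0.51 for Rps13-ps1 and 4.01 ± 0.39 for Eif5al3-ps. In 4 of them the parent gene was lower: Rplp0 by -0.59, Rps3a1 by -0.71, Tpm3 by -0.54 and Rps13 by -0.70. Summed with its copy, Rplp0 differed by -0.55, Rps3a1 by -0.21, Tpm3 by -0.09, Rps13 by 0.45 and Eno1 by 0.69. Since RSEM divides reads among near-identical sequences, these values are uncertain. Of 77 ribosomal protein pseudogenes tested, 11 were higher (14.3%) and 3 lower (3.90%), both below the 20.2% and 23.6% of all tested genes.

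Lysosomes are acidic compartments in which hydrolases digest proteins, lipids and glycans; the V-ATPase pumps in protons, and the factor TFEB drives many of these genes through a short palindrome in their promoters. Of 83 genes in 3 lysosome lists, 66 were lower in 14-3-3ε knockout (79.5%, against 23.6% of all tested genes) and 1 was higher. Their median difference was -0.72, against -0.0036 over all genes. The 83 genes together took 4.55%, 4.84% and 4.83% of the reads in the 14-3-3ε knockout libraries and 9.23%, 8.89% and 9.34% in the PGRN knockout libraries. With library totals as the scale the medians of the 3 lists stayed below 0, at -0.56, -0.50 and -0.55.

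The members that carry TCACGTGA, the E-box form of the TFEB element, in the 250 bases before the start site are shown because these genes moved together. The palindrome was found by exact letters, which read the same on both strands, in 7 of 66 lysosome genes matched to RefSeq promoter windows (10.6%), in 1.77% of 10508 matched genes among those tested and in 0.785% of all 32851 windows. Its inner part CACGTG, counted wherever it occurred and so including the former, was in 18 of the 66 (27.3%) against 9.72% and 6.02%. A match describes the letters and is neither a bound site nor a cause. Of the 7 genes 6 are printed. In these windows, from RefSeq on GRCm38.p6, 5′ to 3′ on the strand of the gene, capitals mark the palindrome.
Gla (chrX:134601196-134601255, minus strand): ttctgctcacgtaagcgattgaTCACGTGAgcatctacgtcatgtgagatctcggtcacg
Ctsd (chr7:142387889-142387956, minus strand): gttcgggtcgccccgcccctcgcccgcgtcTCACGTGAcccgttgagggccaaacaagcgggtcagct
Cln3 (chr7:126583321-126583388, minus strand): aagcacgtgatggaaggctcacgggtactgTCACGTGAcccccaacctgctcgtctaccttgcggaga
Ctsa (chr2:164833730-164833772, plus strand): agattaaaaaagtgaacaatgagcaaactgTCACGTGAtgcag
Mcoln1 (chr8:3500443-3500510, plus strand): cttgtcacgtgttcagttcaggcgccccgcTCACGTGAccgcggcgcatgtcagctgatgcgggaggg
Atp6v1a (chr16:44139354-44139421, minus strand): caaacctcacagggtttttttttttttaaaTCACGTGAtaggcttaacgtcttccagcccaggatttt
The palindrome ends 220 bases before the start site in Gla, 91 bases before the start site in Ctsd, 114 bases before the start site in Cln3, 5 bases before the start site in Ctsa, 38 bases before the start site in Mcoln1, 124 bases before the start site in Atp6v1a.

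Hydrolases were read next. Of 40 tested, 28 were lower and 1 was higher, with a median of -0.73. Ctsb, encoding the cysteine protease cathepsin B, had 154490, 159917 and 154351 normalized counts in 14-3-3ε knockout and 365325, 349847 and 365583 in PGRN knockout (-1.21 ± 0.06, adjusted p = 2e-05). The aspartic protease gene Ctsd, which carries the palindrome shown above, had 112588, 121696 and 117780 against 299977, 260293 and 298436 (-1.28 ± 0.08). In both genes the lowest PGRN knockout library was above 2 times the mean of the other group. Lgmn (legumain, an asparaginyl protease) differed by -1.39 ± 0.06, Gla (α-galactosidase A) by -1.33 ± 0.07 and Dnase2a (the acid DNase) by -1.10 ± 0.06. The single higher member was Ctsf, a cathepsin of the same fold, at 0.60 ± 0.14. Gaa (acid α-glucosidase, -0.01 ± 0.05) and Smpd1 (acid sphingomyelinase, -0.07 ± 0.05) did not pass.

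Among membrane proteins and activators, 22 of 26 were lower and 0 higher, with a median of -0.67. Psap, the precursor of the saposins and the partner of progranulin in transport to the lysosome, had 124437, 127565 and 134815 normalized counts in 14-3-3ε knockout and 366624, 393939 and 379855 in PGRN knockout (-1.56 ± 0.06, adjusted p = 1.6e-05). Cd68, a lysosomal membrane glycoprotein of macrophages, had 11882, 11902 and 12060 against 34390, 31739 and 32857 (-1.46 ± 0.06). Libraries of each genotype lay close together for both genes. The calcium channel gene Mcoln2 differed by -1.53 ± 0.08, Cln3 by -1.11 ± 0.07, and the ubiquitous channel gene Mcoln1 by -0.60 ± 0.05. Mcoln3, another channel gene of that family, had the largest difference of the list at -2.98 ± 0.26. Sort1, the receptor sortilin, and Tmem106b, a lysosomal protein with a known link to progranulin disease, did not pass at -0.14 ± 0.08 and -0.04 ± 0.06.

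Of 17 V-ATPase genes 16 were lower, with a median of -0.73; the exception Atp6v0a2 did not pass at -0.14 ± 0.10. Atp6v0d2, a subunit typical of osteoclasts and activated macrophages, had 505, 480.3 and 585 normalized counts in 14-3-3ε knockout against 1958, 2107 and 2021 in PGRN knockout (-1.96 ± 0.08). The widely expressed subunits differed less, with -0.92 ± 0.05 for Atp6v0b, -0.75 ± 0.05 for Atp6v1d and -0.73 ± 0.05 for Atp6v1f. Of the Rag GTPases, folliculin complex and TFEB family, which sense nutrients at the lysosome, 14 of 26 were lower and 0 higher. Rragd, a Rag GTPase subunit, had 35.1, 53.8 and 42.3 against 374, 354 and 365 (-3.05 ± 0.17, adjusted p = 2.7e-05). Fnip2, a partner of folliculin, differed by -1.52 ± 0.07, Rragc by -0.66 ± 0.05 and Tfeb itself by -0.74 ± 0.07, with 487, 487 and 486 against 851, 762 and 831 normalized counts. Mtor did not pass at -0.05 ± 0.06. Among 29 autophagy genes 16 were lower and 3 higher, a count of lower genes that fell to 10 with library totals. Sqstm1, the cargo receptor p62, had 9636, 10744 and 11958 against 23305, 21758 and 23025 (-1.08 ± 0.08), whereas Wipi1, which acts in phagophore growth, was higher by 0.80 ± 0.07.

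**Figure D2:**
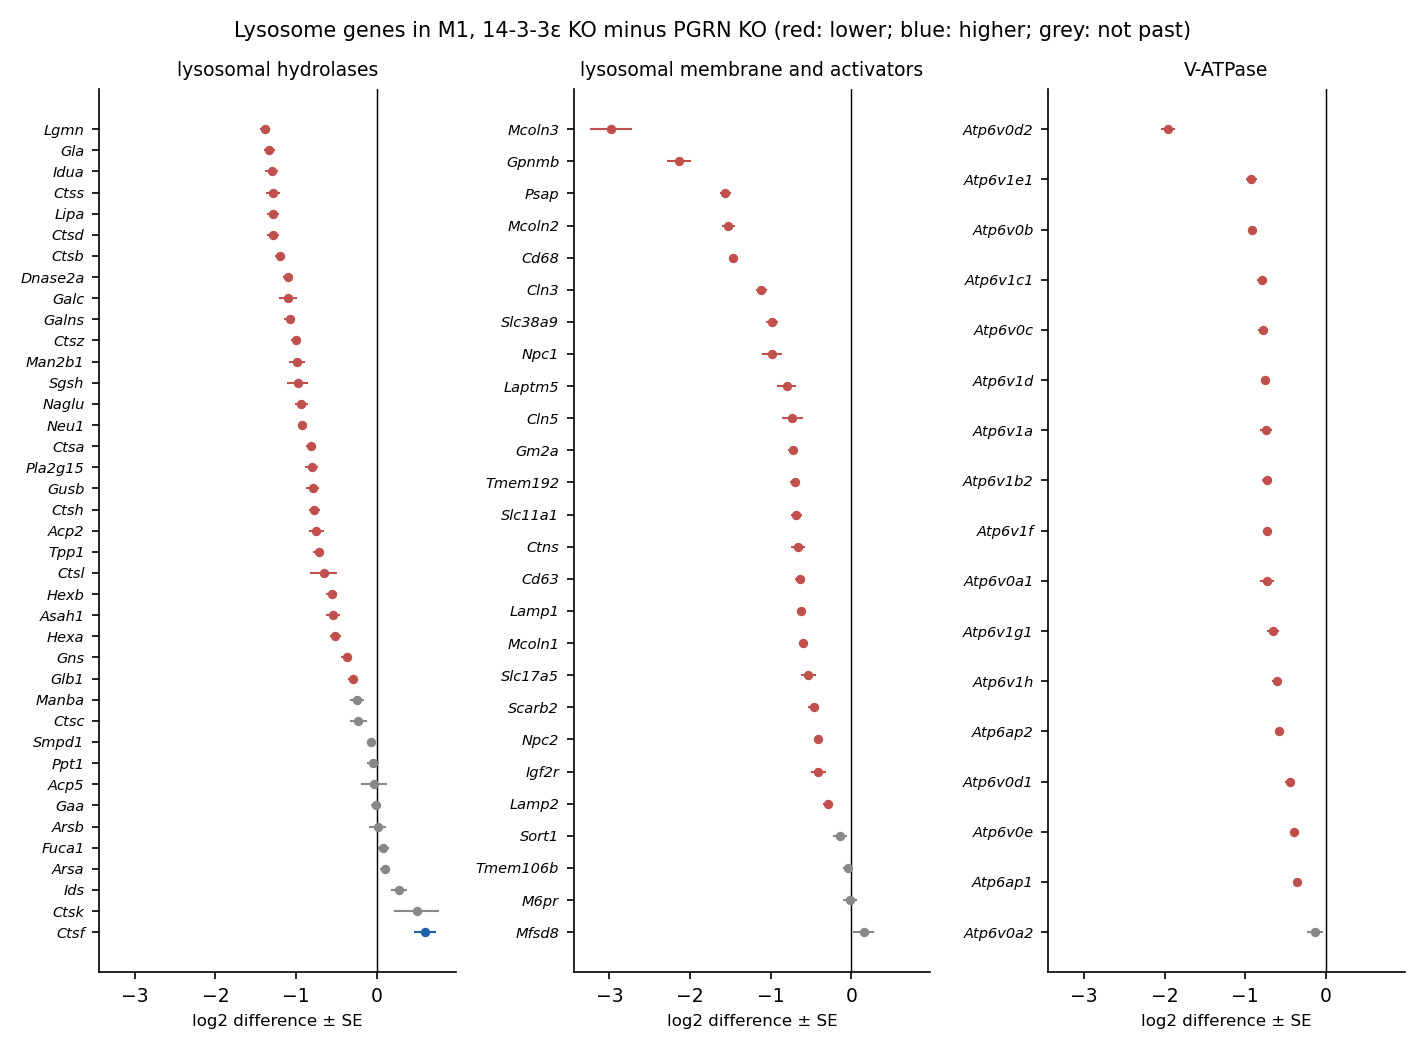
Log2 difference of 14-3-3ε knockout minus PGRN knockout with its standard error (horizontal axis) for the lysosome genes, in 3 panels by list, with 1 of the 83 not drawn; red points were lower, blue higher and grey not past adjusted p 0.05. All but 17 points are red, and the blue point is Ctsf.

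Genes of lipid handling were mostly lower in 14-3-3ε knockout: 16 of 22 liver X receptor targets and lipid carriers, with 3 higher and a median of -0.71. Apoc2, the cofactor of lipoprotein lipase, had 386, 365 and 311 normalized counts against 1551, 1479 and 1630 (-2.14 ± 0.09, adjusted p = 1.6e-05). Abcg1, an exporter of cholesterol, differed by -1.34 ± 0.06, and Soat1, which esterifies cholesterol, by -1.05 ± 0.06. The 3 higher members were Apoc1 (1.17 ± 0.32), Ch25h (0.94 ± 0.15) and Fasn (0.51 ± 0.11), of which Apoc1 lost its call without 14-3-3ε knockout replicate 3 and without PGRN knockout replicate 1 or 3. Of 18 genes known from lipid-associated macrophages 15 were lower, and these include Fabp5, Ctsd and Ctsb of the groups above. Trem2, a receptor for lipids and apolipoproteins, had 1550, 2083 and 1755 against 7343, 6529 and 7832 (-2.02 ± 0.12). Cd9, a tetraspanin, was the 1 higher member at 0.57 ± 0.09. Of 25 genes of cholesterol synthesis 6 were lower, a share of 24.0% that is near the 23.6% of all tested genes, and 0 were higher; the lower count was 15 without 14-3-3ε knockout replicate 1.

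Iron and antioxidant genes followed the same side. Of 20 iron and heme genes 12 were lower and 4 higher; Ftl1, the ferritin light chain, had 164365, 166921 and 184528 normalized counts against 339186, 355183 and 335958 (-1.0 ± 0.07), and Ncoa4, the receptor that delivers ferritin to lysosomes, differed by -1.51 ± 0.10. Of 23 NRF2 and antioxidant genes 16 were lower and 1, Me1 (malic enzyme), was higher by 1.0 ± 0.07. Gpx4, which reduces lipid peroxides, had 4934, 4619 and 4915 against 9603, 8852 and 9730 (-0.96 ± 0.06), and Cat, the catalase, differed by -0.89 ± 0.07.

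**Figure D3:**
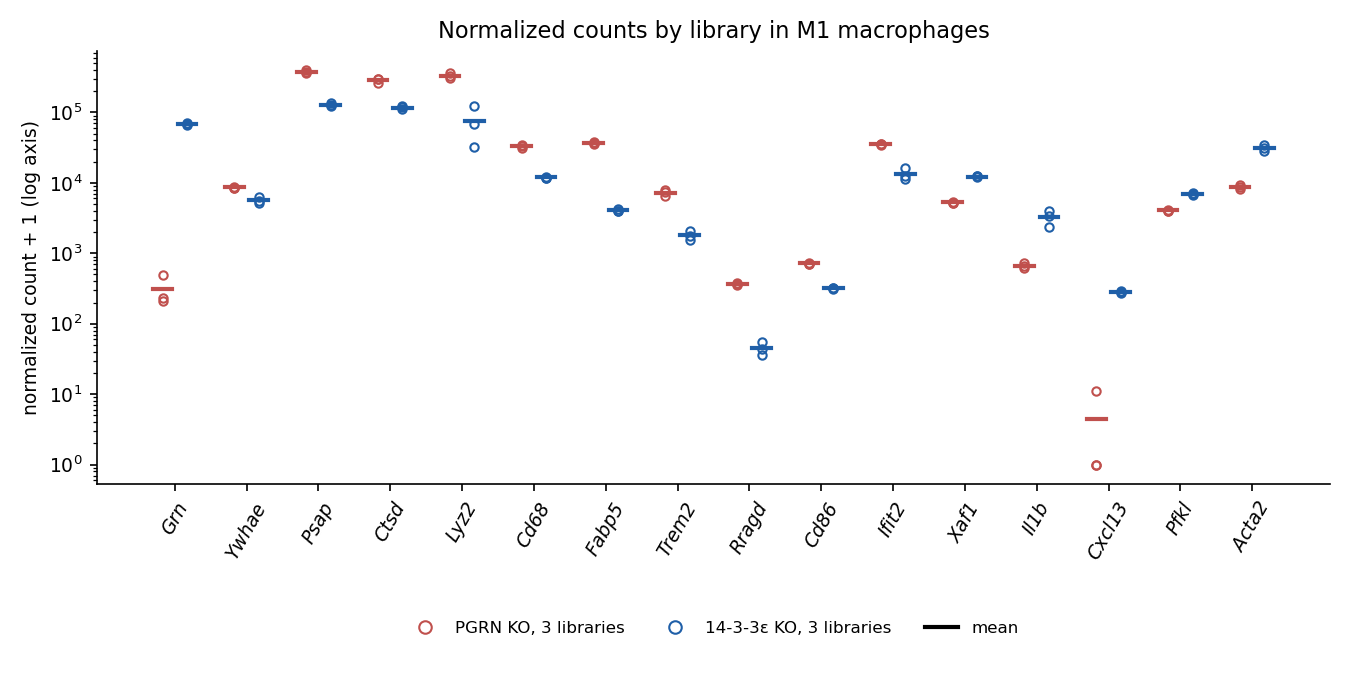
Normalized counts plus 1 (vertical log axis) of 16 named genes in the 3 PGRN knockout (red) and 3 14-3-3ε knockout (blue) M1 libraries, with bars at the mean. The groups do not overlap for any gene shown, and Lyz2 is the gene whose blue libraries lie furthest apart among the abundant ones.

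Interferon programs were the next group. Type I interferons induce antiviral genes, and interferon gamma, which these cells received, induces genes of antigen presentation and cell-autonomous immunity. Of 35 genes of the type I response 24 were lower in 14-3-3ε knockout (68.6% against 23.6% of all tested genes) and 2 were higher, with a median of -0.38. Ifit2 had 11396, 16392 and 12504 normalized counts against 35836, 35748 and 34146 (-1.41 ± 0.13, adjusted p = 0.00019). Cmpk2, a mitochondrial nucleotide kinase, differed by -1.58 ± 0.16 and the antiviral gene Oasl2 by -0.66 ± 0.06. The exception was Xaf1, an inhibitor of XIAP, with 12328, 12432 and 11972 against 5248, 5391 and 5174 (1.22 ± 0.05); the second higher gene was Mx2 at 0.32 ± 0.10, whose groups overlapped and whose call was lost without 14-3-3ε knockout replicate 2 or 3 and without PGRN knockout replicate 1 or 3.

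Of 30 genes of the interferon gamma response 18 were lower and 1 higher, and their median was -0.39. Cd274, the checkpoint ligand PD-L1, had 3724, 4536 and 4645 normalized counts against 11870, 13011 and 11537 (-1.5 ± 0.10, adjusted p = 4.5e-05). Irf8, a transcription factor of myeloid cells, differed by -0.79 ± 0.07, the immunoproteasome subunit gene Psmb9 by -0.45 ± 0.05 and the guanylate-binding gene Gbp8 by -1.81 ± 0.21. The transcription factor gene Irf1 (-0.20 ± 0.09) and the chemokine gene Cxcl9 (0.60 ± 0.40) did not pass. The 1 higher member was Iigp1 at 0.63 ± 0.14.

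Of 20 genes of MHC class I presentation 15 were lower and 2 higher; the lower count was 9 with library totals. H2-T23, a nonclassical class I molecule, differed by -0.56 ± 0.06 and the peptide editor gene Tapbpl by -0.55 ± 0.06, while the chaperone genes Pdia3 (0.48 ± 0.06) and Calr (0.54 ± 0.06) were higher. MHC class II presentation split within its own list of 13, with 4 higher (30.8%) and 5 lower (38.5%), against 20.2% and 23.6% of all tested genes. The 4 higher members were the class II chains and their invariant chain: H2-Aa had 7220, 4407 and 2854 normalized counts against 2017, 1922 and 2022 (1.18 ± 0.33), H2-Ab1 differed by 1.03 ± 0.26, H2-Eb1 by 1.19 ± 0.30 and Cd74 by 1.26 ± 0.28. The calls of H2-Aa, H2-Ab1 and H2-Eb1 were each lost without 14-3-3ε knockout replicate 2, without PGRN knockout replicate 2 and without PGRN knockout replicate 3, and those of H2-Aa and H2-Eb1 also without PGRN knockout replicate 1. The lower members were proteins that process antigen or load peptide, among them Lgmn, the protease gene Ctss (-1.29 ± 0.09), the thiol reductase gene Ifi30 (-0.79 ± 0.06) and H2-DMb1 (-0.71 ± 0.06). The class II transactivator Ciita did not pass at -0.06 ± 0.55.

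Among M1 markers the split was even, with 6 of 26 higher and 7 lower, near the shares of all tested genes. Cd86, a co-stimulatory ligand, had 313, 325 and 323 normalized counts against 712, 735 and 701 (-1.16 ± 0.06, adjusted p = 2.7e-05), and Fcgr1, the high-affinity IgG receptor, differed by -0.93 ± 0.09. Nos2 (0.03 ± 0.14) and Il12b (-0.00 ± 0.34), both defining genes of the state, did not pass. Of 21 cytokines and receptors of the IL-1, IL-6 and IL-12 families 5 were higher (23.8%) and 7 lower (33.3%), against 20.2% and 23.6% of all tested genes, and 3 were lower where 18 libraries entered the fit. Il1b had 3366, 3969 and 2337 against 720.2, 665 and 621 (2.24 ± 0.19, adjusted p = 0.00024), whereas its relative Il1a had 907, 881 and 795 against 1530, 1564 and 1412 (-0.80 ± 0.07), so the 2 interleukin-1 genes differed in opposite directions; Il1a did not pass where 12 or 18 libraries shared the estimate of spread. Il6 was higher by 1.74 ± 0.26 from low levels, 49.4, 44.8 and 48.7 against 16.4, 14.9 and 10.2 normalized counts. The receptor gene Il10rb was lower by -0.89 ± 0.06 and Il18bp, a decoy for interleukin-18, by -0.73 ± 0.07.

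Of 25 chemokines 9 were higher (36%) and 5 lower (20%), against 20.2% and 23.6% of all tested genes. The higher count ranged from 6 to 11 with 1 library left out. Besides Cxcl13, the higher members included Cxcl11, with 1671, 2502 and 2334 normalized counts against 389, 421 and 293 (2.55 ± 0.19), and the membrane-bound Cx3cl1 at 1.52 ± 0.13. GENCODE M21 lists Cxcl11 as a polymorphic pseudogene, so its RNA is not read here as a working ligand of CXCR3. Ccl5 had 48782, 54358 and 42870 against 115096, 98461 and 108298 (-1.14 ± 0.10) and Ccl3 differed by -1.12 ± 0.13. Among receptors, Ccr2 of inflammatory monocytes was higher by 1.51 ± 0.14 and Cx3cr1, the receptor of Cx3cl1, by 1.95 ± 0.24, while Ccrl2 was lower by -1.07 ± 0.14.

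Pattern receptors and inflammasome genes were mostly lower. Of 23 Toll-like receptor and adaptor genes 13 were lower and 2 higher, the former count falling to 8 with library totals. Cd180, an LPS receptor relative, had 2780, 3111 and 2433 normalized counts against 9806, 8807 and 9739 (-1.77 ± 0.10), and Tlr1 differed by -1.71 ± 0.16. Cd14, the LPS co-receptor, had 10516, 12580 and 9529 against 3965, 2901 and 3901 and was higher (1.60 ± 0.15, adjusted p = 0.00027). Of 28 inflammasome and cell death genes 19 were lower and 5 higher. Casp1, the protease that matures interleukin-1β, had 2300, 2438 and 2088 against 4170, 4363 and 4216 (-0.90 ± 0.07), and the flagellin sensor Naip5 differed by -1.53 ± 0.11. The neighbouring sensor genes Nlrp1a and Nlrp1b went opposite ways, at -2.58 ± 0.26 and 2.28 ± 0.16; they are close paralogs, so the division of reads between them is uncertain. Nlrp3 was higher by 0.80 ± 0.08.

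**Figure D4:**
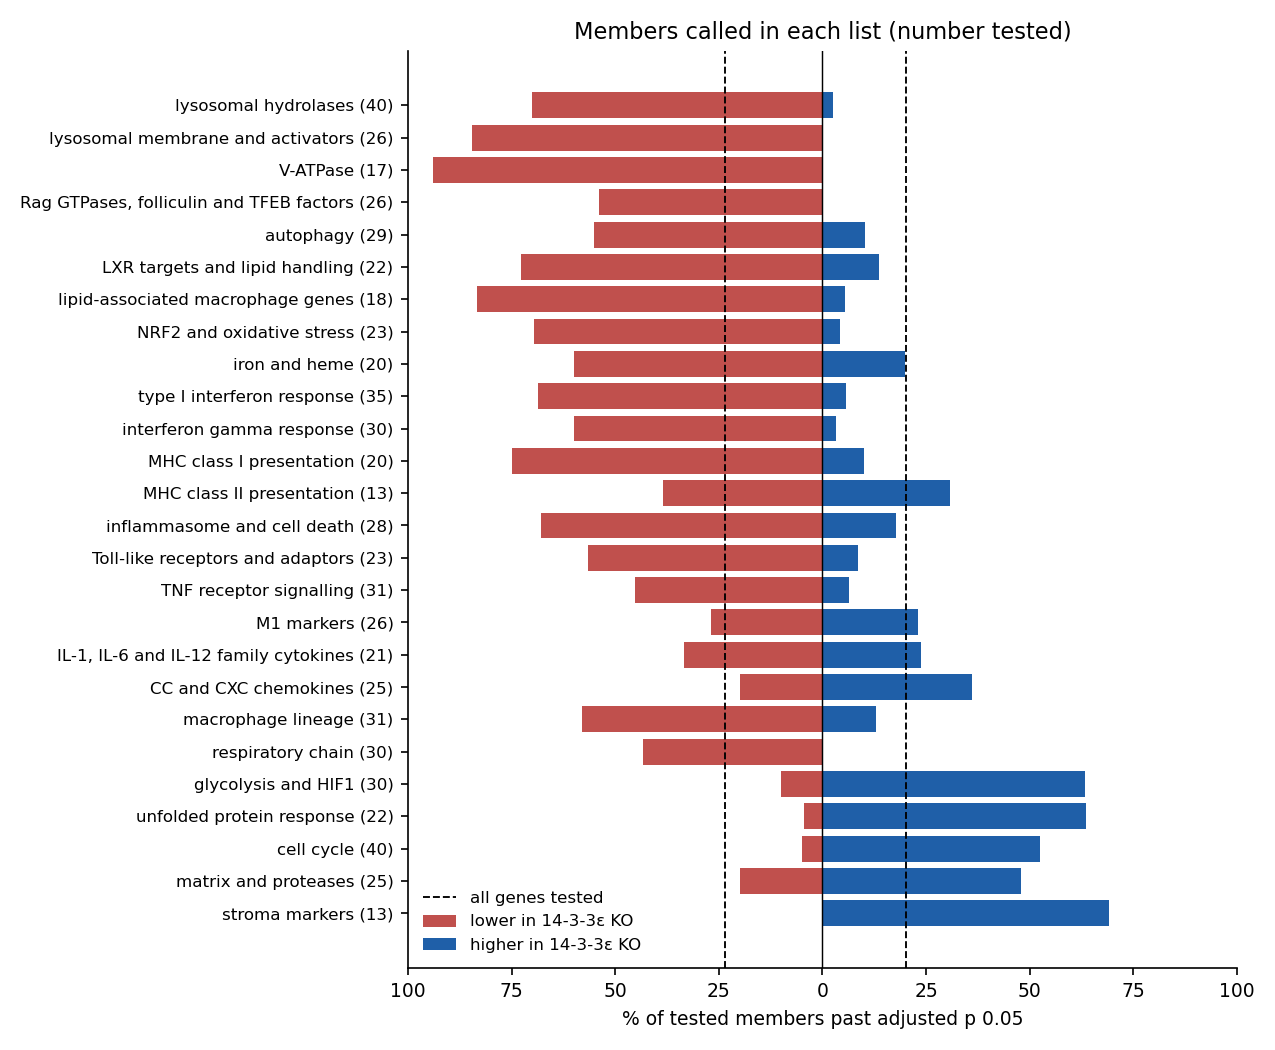
Share of the tested members of 26 gene lists that passed adjusted p 0.05, lower (red, to the left) or higher (blue, to the right) in 14-3-3ε knockout; dashed lines mark the shares over all tested genes, 23.6% lower and 20.2% higher. The V-ATPase (94.1%), lysosomal membrane (84.6%) and lipid-associated macrophage (83.3%) lists reach furthest left, and stroma markers, unfolded protein response and glycolysis reach furthest right.

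TNF signalling and the 14-3-3 family, the subjects of the series, came next. Tnfrsf1b, encoding TNFR2, had 7876, 10623 and 10061 normalized counts in 14-3-3ε knockout and 19461, 14886 and 19148 in PGRN knockout (-0.91 ± 0.15, adjusted p = 0.0026). Tnfrsf1a, the other TNF receptor, differed by -0.21 ± 0.06 and the cytokine gene Tnf by -0.37 ± 0.09, with 1573, 1898 and 1778 against 2357, 2072 and 2359. Tnf did not pass with library totals, nor did Tnfrsf1a, which also lost its call without 14-3-3ε knockout replicate 3 and without PGRN knockout replicate 1 or 2. Of 31 genes of TNF receptor signalling 14 were lower and 2 higher; the lower count was 3 with library totals and 9 without PGRN knockout replicate 1. Cflar, an inhibitor of caspase-8, differed by -0.60 ± 0.11, Sharpin, a subunit of the linear ubiquitin ligase, by -0.49 ± 0.06, and the kinase gene Map3k5 by 0.67 ± 0.09. Of 16 NF-κB subunits and inhibitors 8 were lower and 2 higher, with the former falling to 3 with library totals and to 5 without PGRN knockout replicate 1 or replicate 3. Nfkbiz, an atypical inhibitor that also serves as a co-activator, had 1118, 1356 and 1024 against 696, 682 and 708 (0.74 ± 0.10), and Bcl3 differed by -0.40 ± 0.06.

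Of the 7 14-3-3 genes, all tested, 3 were lower, 1 was higher and 3 did not pass. Besides Ywhae these were Ywhaq (theta), at 3247, 3133 and 2844 normalized counts against 1970, 2226 and 2114 (0.55 ± 0.07, adjusted p = 0.00081), Ywhag (gamma) at -0.22 ± 0.05 and Sfn (sigma) at -0.94 ± 0.26. Ywhag did not pass with library totals as the scale or without PGRN knockout replicate 1, and Sfn, the least abundant, lost its call without any one of 3 libraries (14-3-3ε knockout replicate 3, PGRN knockout replicates 2 and 3). Ywhaz (zeta, 0.16 ± 0.07), Ywhab (beta, 0.13 ± 0.05) and Ywhah (eta, -0.14 ± 0.07) did not pass. Of 26 genes of known 14-3-3 client proteins 7 were higher (26.9%) and 4 lower (15.4%), near the 20.2% and 23.6% of all tested genes; with library totals 11 were higher. Irs1, the insulin receptor substrate, had 1109, 1045 and 1285 against 409, 438 and 421 (1.43 ± 0.09), and the Hippo effectors Yap1 and Wwtr1 were higher by 1.01 ± 0.07 and 0.99 ± 0.11. Stroma markers were higher in the same libraries, by the sums given above, and their part in the values of Yap1 and Wwtr1 was not tested. Of 11 genes for partners of progranulin 5 were lower and 0 higher, among them Psap, Ctsd, Tnfrsf1b and Tnfrsf1a.

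Of 31 macrophage lineage genes 18 were lower and 4 higher. Lyz2, encoding lysozyme M, had 123842, 32601 and 69486 normalized counts in 14-3-3ε knockout and 330483, 305368 and 359805 in PGRN knockout (-2.34 ± 0.48, adjusted p = 0.012), so the 14-3-3ε libraries differed among themselves by more than any pair of PGRN knockout libraries. Lyz1, its near-identical neighbour, had 1648, 1249 and 3041 against 604, 545 and 634 (1.63 ± 0.32). How the counting split reads between Lyz2 and Lyz1 was not tested. The driver of the myeloid deletion is not given, and whether it bears on the values of either gene was not tested. Cd300a, an inhibitory receptor, had 492, 594 and 498 against 1191, 1118 and 1211 (-1.15 ± 0.09). Csf1r, the M-CSF receptor, Adgre1 (F4/80) and Itgam (CD11b) did not pass, at -0.33 ± 0.19, 0.26 ± 0.16 and 0.17 ± 0.14.

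Genes that dampen or follow MAP kinase signalling were higher in 11 of 27 and lower in 2. Socs2, a suppressor of cytokine signalling, had 258, 215 and 249.8 normalized counts against 113, 132 and 90.6 (1.12 ± 0.16), and Fos, an immediate early transcription factor, differed by 0.80 ± 0.13. The 2 lower members were Atf3, a stress-induced repressor, at -1.22 ± 0.17 and Jun at -0.58 ± 0.07.

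Of 30 M2 markers 8 were higher (26.7%) and 11 lower (36.7%), against 20.2% and 23.6% of all tested genes; the latter count was 6 with library totals. Il4ra, the IL-4 receptor chain, had 8153, 7439 and 6409 normalized counts against 12926, 15710 and 12371 (-0.90 ± 0.12), while Myc differed by 0.97 ± 0.12. Of 24 genes for the clearance of dying cells 6 were higher (25%) and 9 lower (37.5%), against 20.2% and 23.6% of all tested genes, the latter falling to 5 with library totals. The receptor gene Mertk had 1054, 1124 and 963 against 3198, 3446 and 3367 (-1.67 ± 0.07) and the bridging protein gene Mfge8 differed by -1.13 ± 0.08, while Pros1, protein S, a ligand of the same receptor, was higher by 0.90 ± 0.09 and the integrin chain gene Itgav by 0.66 ± 0.07.

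Glycolysis and the unfolded protein response had mostly higher members, unlike the other metabolic and stress lists. Of 30 glycolysis and HIF1 genes 19 were higher (63.3%, against 20.2% of all tested genes) and 3 lower, with a median of 0.36. Pfkl, a phosphofructokinase, had 6614, 7133 and 7057 normalized counts against 4000, 4153 and 3994 (0.78 ± 0.05, adjusted p = 6.1e-05). Egln1, an oxygen sensor that marks HIF1 for decay, differed by 0.89 ± 0.06 and the oxidoreductase gene Ero1l by 1.08 ± 0.09. Hk3, a myeloid hexokinase, was lower, with 7926, 9650 and 8370 against 20042, 17936 and 19081 (-1.14 ± 0.09). Ldha, the lactate dehydrogenase, did not pass at 0.17 ± 0.07. The list took 1.17%, 1.23% and 1.23% of reads in 14-3-3ε knockout and 0.999%, 0.990% and 1.003% in PGRN knockout.

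Of 22 genes of the unfolded protein response 14 were higher and 1 lower. Hsp90b1, the chaperone GRP94, had 22429, 21201 and 21513 normalized counts against 14289, 14460 and 13876 (0.61 ± 0.05), Pdia4 differed by 0.70 ± 0.06 and Pdia6 by 0.70 ± 0.07. The 1 lower member was the sensor kinase gene Ern1 at -0.39 ± 0.10, a call lost with library totals and without PGRN knockout replicate 1 or 3. Of the ATF4 and amino acid response, 8 of 22 were higher (36.4%) and 8 lower (36.4%), against 20.2% and 23.6% of all tested genes. Atf4 differed by -0.46 ± 0.06 and Ddit3, the factor CHOP, by -1.05 ± 0.12. Of 30 respiratory chain genes 13 were lower (43.3%, against 23.6% of all tested genes) and 0 higher, led by Sdhb (-0.83 ± 0.06), a succinate dehydrogenase subunit. Only 4 were lower with library totals, which also made 4 higher.

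Cell cycle genes were higher in 21 of 40 (52.5%) and lower in 2 (5%), against 20.2% and 23.6% of all tested genes, with a median of 0.56. Rrm1, which makes deoxynucleotides, had 2623, 2224 and 2222 normalized counts against 1295, 1183 and 1270 (0.91 ± 0.08), and the cyclin gene Ccnd2 differed by 0.86 ± 0.08. Pcna, the sliding clamp of DNA polymerase, was lower at -0.69 ± 0.07, and Mki67, the proliferation marker, did not pass at 0.44 ± 0.19. With 1 library left out, the count of higher members was 16, 11 and 28 without 14-3-3ε knockout replicate 1, 2 and 3, and 12 without each of the PGRN knockout replicates.

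Of the 13 stroma markers, genes of fibroblasts and smooth muscle, 9 were higher. Acta2, smooth muscle actin, had 28320, 34648 and 31574 normalized counts against 8609, 8170 and 9286 (1.86 ± 0.09, adjusted p = 1.9e-05), and Col1a2 differed by 1.06 ± 0.09. Among the same markers Dcn (0.50 ± 0.21), Lum (0.07 ± 0.43), Postn (0.85 ± 0.29) and Thy1 (-0.56 ± 0.36) did not pass. In the list of 25 matrix and protease genes 12 were higher and 5 lower, a list whose Timp1 differed by 0.79 ± 0.09, while the macrophage elastase gene Mmp12 had 1859, 2279 and 1817 against 5874, 4788 and 6461 (-1.52 ± 0.13) and Spp1 (osteopontin) differed by -0.90 ± 0.06. The part of the stroma markers in the higher matrix genes was not tested.

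Both targeted genes lie on chromosome 11 (GRCm38): Ywhae at 75732869 to 75765845 and Grn at 102430315 to 102437048. Within 10 Mb of Ywhae 129 of 292 tested genes passed (44.2%), and within 10 Mb of Grn 107 of 262 (40.8%), near the 43.8% of all genes. Over 2-fold differences were 9.25% and 7.25% of those genes against 10.8% of all. Slc13a5, Xaf1, Nlrp1b and Nlrp1a, described above, lie at -3.49, -3.43, -4.58 and -4.64 Mb from Ywhae, negative toward lower coordinates, and Tlcd2 lies at -0.27 Mb with 296, 265 and 342 normalized counts against 77.7, 87.2 and 73.4 (1.90 ± 0.13).

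The same genotype contrast was then set against that of the M2 libraries, which share no library with it, in a fit of 12 knockout libraries. Of 15008 genes tested, 1616 had a contrast that differed between M1 and M2 (10.8%): 938 toward higher (6.25%) and 678 toward lower values in M1 (4.52%). The fitted contrast had the same sign in M1 and M2 in 842 of them and opposite signs in 774. Neither contrast had to pass on its own, so values near 0 were also counted by their sign. The count was 1056 without 14-3-3ε knockout M2 replicate 2, 1065 without PGRN knockout M1 replicate 1 and 1040 without PGRN knockout M2 replicate 3. Same-numbered M1 and M2 libraries deviated together in 14-3-3ε knockout (correlations of 0.527, 0.434 and 0.463 over 10931 genes) and less evenly in PGRN knockout (0.158, 0.427 and 0.0497), and the fit of 12 libraries does not use this. With a replicate block within genotype, chosen after seeing the data, 2641 genes passed (17.6%), 1565 of them among the 1616. Of the 40 lysosomal hydrolases 1 had such a difference without the block (2.5%) and 7 with it, with medians of -0.73 in M1 and -0.73 in M2; Ctsb differed by -1.21 in M1 and by -1.13 in M2. Of the 26 lysosomal membrane genes and activators 9 had one, 5 toward higher and 4 toward lower values in M1, and 10 with the block. Psap passed in neither fit, at -1.56 and -1.32, with an M1 minus M2 value of -0.24 ± 0.11 (± SE, adjusted p = 0.17, and 0.16 with the block).

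Other genes separated the states. Cxcl13 differed by 6.98 in M1 and by 0.76 in M2, an M1 minus M2 value of 6.22 ± 1.13 (adjusted p = 0.0058). It had 1.35 or fewer normalized counts in every knockout M2 library, too few for a genotype difference to be seen there. Serpinb2, an inhibitor of plasminogen activators, was higher in M1 (2.38) and had a value of -2.42 in M2, with 4.79 ± 0.59 between them. The other large positive values were 4.25 ± 1.19 for Map2, a microtubule protein, 3.61 ± 0.51 for the organic anion carrier gene Slco2b1 (too low in M1 to be tested there) and 2.68 ± 0.70 for the cell fusion gene Dcstamp. The calls of Map2 (adjusted p = 0.048) and Cd300ld5 (0.033) were lost with the block, at adjusted p of 0.063 and 0.072. The largest negative values were -5.23 ± 1.3 for Cd300ld5, -4.04 ± 0.56 for the activating receptor gene Tarm1, -3.38 ± 0.71 for Apol9b, -3.10 ± 0.39 for Chil4 and -2.95 ± 0.60 for Rnase2a, of which the last pair had 2.05 or fewer normalized counts in every knockout M1 library. Chil4 and Rnase2a are IL-4-inducible genes of families with near-identical members.

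Among genes of the lists, Mcoln2 differed by -1.53 in M1 and by -0.02 in M2 (-1.51 ± 0.17, adjusted p = 0.00038). Cd14 differed by 1.60 and 0.13 (1.47 ± 0.25). Over all genes tested for it, the contrast was more positive in M1 in 6.25% and more negative in 4.52%. With the block 17.6% differed in either direction. Of 30 glycolysis and HIF1 genes 11 had a contrast that was more positive in M1 and 0 the reverse (15 and 1 with the block). Of 36 type I interferon genes 8 had a contrast that was more negative in M1 and 0 the reverse (9 and 2 with the block). Xaf1 is among those 8, since its positive difference was 1.22 in M1 and 2.45 in M2.

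**Figure D5:**
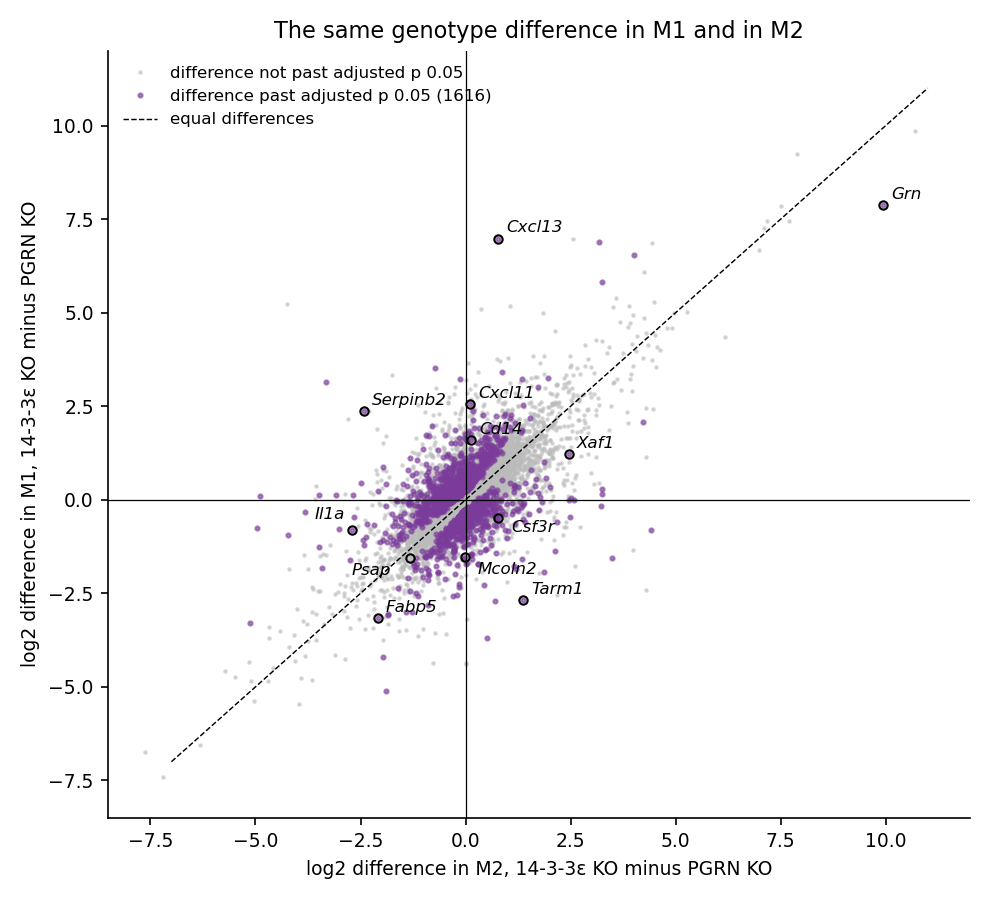
Log2 difference of 14-3-3ε knockout minus PGRN knockout in M1 (vertical axis) against the same difference in M2 (horizontal axis) for 15008 genes; purple marks the 1616 genes whose 2 differences differ at adjusted p 0.05, and the dashed line marks equality. Psap lies near the line, and Cxcl13, Serpinb2 and Tarm1 lie far from it.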

How the data were processed

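RNA of mouse bone marrow-derived macrophages was sequenced in 18 libraries, 3 in each of 6 groups. The authors deposited log2(normalized count + 1) values for 43309 genes; STAR, RSEM 1.3.1 and DESeq2 are named per the submitters' processing notes, without parameters. The genome named there is human while the gene IDs are mouse, so symbols and positions came from GENCODE M21 (GRCm38), which matched 42425 IDs. The deposited log2 values turned back into whole reads (100% within 0.1 of a read), which gave the depth. RSEM estimates divide reads among near-identical genes.

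The 6 M1 knockout libraries were fitted with limma 3.58.1 (R 4.3.3), with a mean-dependent and outlier-robust prior variance, on the deposited values, for genes with at least 10 normalized counts in at least 3 libraries, with Benjamini-Hochberg adjustment over all tested genes and a threshold of 0.05. Every adjusted p in the text comes from limma, and normalized counts exclude the pseudocount of 1. "Higher", "lower" and "passed" refer to this threshold. The M1 minus M2 difference was fitted on 12 knockout libraries. Library totals, used as an alternative scale, are the recovered reads of each library. The steps were tested on simulated data.

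The comparison and the 53 gene lists were chosen with earlier results of these data known. Named genes were Grn and Ywhae, the 12 largest rises and falls (groups not overlapping, mean of at least 5 CPM, no predicted names), up to 4 genes with the smallest p of each list together with defining members that did not pass, and 5 genes in each direction of the M1 minus M2 difference. Other genes, among them Il6, the class II chains, Nlrp1a, Nlrp1b, Mcoln3 and Tlcd2, were chosen after their values were seen. A few genes are not reported here. Alternatives changed the filter, pseudocount, scaling, depth, weights, libraries in the fit and replicate block, and left out each library in turn. Promoter windows were matched to RefSeq by symbol. Figures were drawn with matplotlib 3.10.9.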

Additional observations from a re-analysis of the deposited data

Results flagged for a closer look

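Of 193 genes named in the text, 67 had a genotype difference in M1 that differed from that in M2 (limma, adjusted p under 0.05, 3 libraries in each of 4 groups), against 10.8% of all genes tested for it. The values are M1 minus M2 differences on the log2 scale. Signs in M1 and M2 were read from the fitted values alone, and neither had to pass the threshold. Among the opposite signs below, Bcl3 and Serpinb2 passed in both states, whereas Itgam (0.17) did not pass in M1. Il4ra (0.11) and Psmb9 (0.10) did not pass in M2. Naming favoured large M1 differences, and for 10 genes the M1 minus M2 value itself, so the count is a description. With a replicate block within genotype 65 of the 67 passed, and Map2 and Cd300ld5 did not. A further 21 genes of the text passed only with the block and are not in the groups below. Among them are Lyz2 (1.32, adjusted p of 5.2e-05 with and 0.29 without the block) and Hal (-2.42, 1.6e-05 and 0.11).

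Where the difference had opposite signs in M1 and M2, the values were -5.23 for Cd300ld5, -4.04 for Tarm1, -3.38 for Apol9b, -2.95 for Rnase2a, -1.26 for Csf3r, -1.22 for H2-DMb1, -1.0 for Il4ra, -0.74 for Bcl3 and -0.55 for Psmb9. Further values of this kind were 0.78 for Fasn, 1.12 for Fos, 1.14 for Nfkbiz, 1.22 for Itgam, 1.46 for Cd9, 2.68 for Dcstamp, 3.61 for Slco2b1, 4.25 for Map2 and 4.79 for Serpinb2.

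Where the signs matched and the difference was further from 0 in M1, the values were -1.51 for Mcoln2, -1.25 for Apoc2, -1.22 for Cd300lf, -1.21 for Rragd, -1.15 for Trem2, -1.12 for Ifit2, -1.07 for Fabp5, -0.94 for Ddit3 and -0.90 for Cmpk2. The next were -0.70 for Ccl5, -0.66 for Sdhb, -0.62 for Cd68, -0.60 for Sqstm1, -0.57 for Fnip2, -0.53 for Cd180, -0.50 for Abcg1, -0.42 for Atf4 and -0.42 for Cln3. They were followed by -0.33 for Casp1, -0.31 for Il10rb, -0.22 for Atp6v0b, 0.23 for Hsp90b1, 0.32 for Pdia4, 0.35 for Calr, 0.39 for Yap1, 0.50 for Acta2 and 0.55 for Egln1. After these came 0.56 for Ero1l, 0.61 for Wwtr1, 0.67 for Pros1, 0.81 for Irs1, 0.82 for Myc, 0.96 for Socs2, 0.98 for Cx3cl1, 1.01 for Tlcd2 and 1.31 for Il1b. The last of them were 1.47 for Cd14, 2.44 for Cxcl11 and 6.22 for Cxcl13. Cxcl11 and Cxcl13 had 1.35 or fewer normalized counts in every knockout M2 library.

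Where the difference was further from 0 in M2, the values were -3.10 for Chil4, -2.05 for Grn, -1.24 for Xaf1, 0.33 for Tmem106b, 0.39 for Ywhah, 0.55 for H2-T23, 0.92 for Mfge8, 1.08 for Sort1 and 1.84 for Serpina3h. The others were 1.90 for Il1a.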

How the results depend on the processing

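The count of genes past the threshold (6292) stayed within 1.5 times under every alternative run: 5973 with no filter, 5504 at 5 CPM or more, 6226 and 6325 with pseudocounts of 0.1 and 4, 6787 with library totals, 5401 at equal depth, 6607 with voom weights, 7027 and 5448 with 12 and 18 libraries in the fit, and 4798 to 6291 with 1 library left out. Of 216 genes that passed and met the naming rule or stand in the text, 191 kept the call in all alternatives, 25 lost it in at least 1, and 0 changed sign. Gaa, which did not pass, was 0.16 with library totals and passed there. Depth limited genes with few reads, since 1 read was worth up to 2.49 normalized counts.

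Libraries of the 2 genotypes share replicate numbers, but same-numbered M1 libraries did not deviate together (correlations of deviations -0.197, 0.00084 and 0.0446), so the numbers were not taken as pairs in the M1 comparison. With a replicate block 5063 genes passed, 4984 of them among the 6292. The M1 minus M2 count of 1616 was 642 with 18 libraries in the fit and 1040 to 1680 with 1 library left out: 1056 without 14-3-3ε knockout M2 replicate 2, 1065 without PGRN knockout M1 replicate 1 and 1040 without PGRN knockout M2 replicate 3. A replicate block within genotype, chosen after seeing the data because same-numbered M1 and M2 libraries of 14-3-3ε knockout deviated together, gave 2641. The cause of these changes was not tested.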
